A study of Mus musculus with 15 samples.

Results

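The genes described here are the receptor PD-1 (Pdcd1), its ligands PD-L1 (Cd274) and PD-L2 (Pdcd1lg2), and Cd80, a costimulatory ligand that also binds PD-L1. They were taken by symbol, and are 4 of the 23420 symbols in the deposited table. All 4 passed the filter on low values, as did 13592 symbols in all. Their transcript levels were measured in bulk RNA from 15 mouse melanoma grafts, 3 libraries in each of 5 groups. Grafts were grown from the line D3UV2 (UV2), which carries putative neoantigens induced by UVB light, or from its comparator D4M.3A.3 (parental). All mice were female C57BL/6, aged 8 weeks, and received 1000000 melanoma cells in each flank. Left-flank tumors were treated on days 8, 10 and 12 and taken on day 13, which was 1 day after therapy ended. The groups were UV2 with anti-PD-1, UV2 with isotype control antibody, parental with triple therapy, parental with anti-PD-1, and parental with isotype control antibody. The labels disagree on triple therapy. Sample characteristics and design text list anti-PD-1, imiquimod (a Toll-like receptor agonist applied to skin) and ablative fractional photothermolysis (laser removal of small tissue columns), whereas under treatment the antibody named is the isotype control and not anti-PD-1. Triple therapy was given to parental grafts only, and each line is a single transplanted line. Whether the 3 libraries per group derive from different mice is not stated, so p-values measure the spread between these libraries, which may not be the spread between mice.

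PD-1 is an inhibitory receptor that T cells display after their antigen receptor has been engaged, and it recruits the phosphatases Shp2 (Ptpn11) and Shp1 (Ptpn6) to damp signalling. PD-L1 is made by tumor cells and by many immune and stromal cells, and interferon gamma induces it through a signalling route that includes Irf1. PD-L2 is made mainly by dendritic cells and macrophages, where interleukin 4, interleukin 13 and GM-CSF are among its inducers. Cd80 on antigen-presenting cells gives T cells costimulation through Cd28, is bound more tightly by Ctla4, and can bind PD-L1 on the same cell. An antibody that blocks PD-1 prevents it from binding these ligands.

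Values are TPM, transcript abundance per length scaled to a fixed total for each library, so levels can be compared between genes. Read depth is unknown, and between 12239 and 13993 genes reached 1 TPM in a library. Although the grafts are labelled melanoma, 2 of 7 melanocyte markers (Mitf and Tyr) passed the filter, and Mlana, Pmel, Dct, Tyrp1 and Sox10 did not. The 12 T cell markers summed to 96.6 TPM in UV2 isotype replicate 1, against 389 and 406 TPM in the other UV2 isotype libraries. They summed to 177 TPM in parental isotype replicate 3, against 51.8 and 59.4 TPM in the other parental isotype libraries. The 8 keratinocyte markers summed to 195 to 29191.5 TPM in triple therapy grafts, against 2.24 to 3.53 TPM with parental anti-PD-1 and 3.28 to 4.55 TPM with parental isotype, and to 303 TPM in UV2 anti-PD-1 replicate 3.

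In the GENCODE M21 annotation of GRCm38, Pdcd1 is a protein-coding gene at chr1:94038305-94052553 on the minus strand, and Cd80 lies at chr16:38455561-38496335 on the plus strand. The ligand genes are neighbours on the plus strand of chromosome 19: Cd274 spans chr19:29367455-29388095 and Pdcd1lg2 spans chr19:29410919-29471161, with 22823 bases between them. Their upstream regions are printed because these adjacent genes had their highest means in different groups. The sequences are the 250 bases before each start site in RefSeq for GRCm38.p6, at chr19:29367188-29367437 for Cd274 and chr19:29410669-29410918 for Pdcd1lg2, and capitals mark a motif match.
Cd274: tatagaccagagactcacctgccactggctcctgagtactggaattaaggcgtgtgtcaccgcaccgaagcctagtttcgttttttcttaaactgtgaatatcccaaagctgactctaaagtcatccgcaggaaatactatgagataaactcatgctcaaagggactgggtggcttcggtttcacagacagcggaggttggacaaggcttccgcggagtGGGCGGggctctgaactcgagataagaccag
Pdcd1lg2: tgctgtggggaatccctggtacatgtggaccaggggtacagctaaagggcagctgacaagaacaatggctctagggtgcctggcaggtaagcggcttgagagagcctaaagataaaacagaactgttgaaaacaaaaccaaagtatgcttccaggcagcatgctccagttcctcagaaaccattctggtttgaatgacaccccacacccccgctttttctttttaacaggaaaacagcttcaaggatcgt
Motifs were searched on both strands. The Cd274 window holds a GC box (GGGCGG) from base -31 to -26 relative to the start site, a motif found in 32.7% of 32851 windows of this length. The Pdcd1 window holds a GC box from -77 to -72, and the Cd80 window an AP-1 motif (TGANTCA, in 6.75% of windows) from -42 to -36. That Cd80 window, chr16:38458683-38458932, lies inside the GENCODE interval of the gene given above and not before its first base. The interferon-stimulated response element core, searched as GAAA, any 2 bases and GAAA (in 2.98% of windows), and TATAAA (in 12.4%) had no match in any of the 4 windows, and the Pdcd1lg2 window matched none of the 4 motifs. Only exact matches to these letters were counted. A window without a match can still hold another form of the element.

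Pdcd1 stood higher in 5 of the 6 UV2 grafts than in any of the 9 parental grafts. Under anti-PD-1, it stood at 61.3, 35.7 and 34.4 TPM in UV2 grafts, against 7.02, 15.6 and 4.58 TPM in parental grafts. Every UV2 anti-PD-1 library was above every parental anti-PD-1 library, as for 16.9% of genes. Under isotype antibody it stood at 4.06, 29.0 and 31.0 TPM in UV2 grafts, against 6.84, 4.05 and 12.6 TPM in parental grafts. These groups overlapped, since UV2 isotype replicate 1 had as little Pdcd1 as the parental grafts. Triple therapy grafts had 2.83, 4.60 and 6.75 TPM, within or below the range of the parental isotype grafts. The group means were 43.8 ± 15.1 TPM in UV2 anti-PD-1, 21.4 ± 15.01 TPM in UV2 isotype, 4.73 ± 1.96 TPM in triple therapy, 9.06 ± 5.77 TPM in parental anti-PD-1 and 7.82 ± 4.34 TPM in parental isotype (SD, n = 3 each). Placed in order of the mean, the ranges of UV2 anti-PD-1 and UV2 isotype did not overlap, and all other neighbouring groups overlapped. Between its lowest and highest library Pdcd1 differed 21.7-fold.

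**Figure D1:**
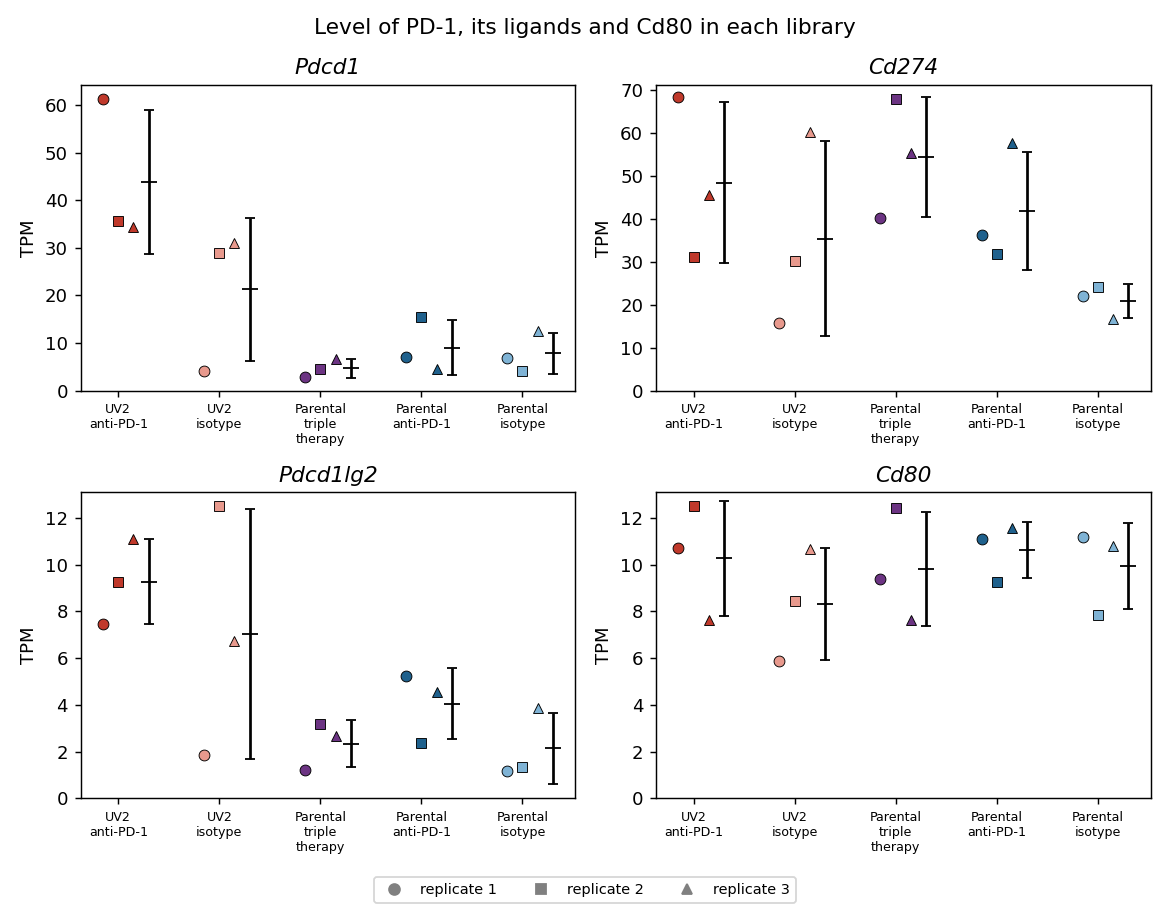
Level of Pdcd1, Cd274, Pdcd1lg2 and Cd80 in TPM (vertical axes, from 0) in each of the 15 libraries, by group, with replicate numbers as marker shapes and the group mean ± SD in black (n = 3). Pdcd1 lies between 34.4 and 61.3 TPM in UV2 anti-PD-1 grafts and at 15.6 TPM or less in all parental grafts, while Cd80 varies 2.13-fold over all libraries.

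Pdcd1 was called higher in UV2 than in parental grafts under anti-PD-1, and this was the only call among the 4 genes in the 6 comparisons of group levels. The log2 difference on the log2(TPM + 1) scale was 2.26 ± 0.65 (SE, 95% interval 0.86 to 3.65, limma adjusted p = 0.0292), which is 4.78-fold in TPM + 1. Each of the 3 UV2 libraries was above all parental anti-PD-1 libraries. In that comparison 26.4% of all genes tested were called in either direction, 9.31% higher and 17.1% lower. Among the called genes 35.3% were higher, against 52.1% under median-of-ratios and 43.6% under quantile scaling. The median of all genes lay at -0.21, so Pdcd1 stood further above the typical gene than above 0. The call was lost without any of 5 of the 6 libraries, with adjusted p of 0.0560, 0.0576 and 0.0919 without UV2 anti-PD-1 replicates 1, 2 and 3, and 0.0756 and 0.118 without parental anti-PD-1 replicates 1 and 3. It was kept without parental anti-PD-1 replicate 2 (adjusted p = 0.0313), and the difference ranged from 1.91 to 2.69 over the 6 omissions. Leaving out UV2 anti-PD-1 replicate 3 or parental anti-PD-1 replicate 3 also reduced the calls among all genes to 9, against 3586 with all libraries.

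Under isotype antibody Pdcd1 differed between UV2 and parental grafts by 1.06 ± 0.65 on the log2 scale (interval -0.34 to 2.45, limma adjusted p = 0.427), where 1.29% of genes were called. Of these 69.9% were higher in UV2, against 44.2% under median-of-ratios and 50.7% under quantile scaling. Without UV2 isotype replicate 1 the difference was 1.93 (adjusted p = 0.0612), without UV2 isotype replicates 2 and 3 it was 0.65 (adjusted p = 0.818) and 0.60 (adjusted p = 0.640), and the 6 omissions gave 0.60 to 1.93. Anti-PD-1 against isotype in UV2 grafts gave 1.35 ± 0.65 (interval -0.04 to 2.75, adjusted p = 0.555), and 0.48 without UV2 isotype replicate 1 (range over the 6 omissions 0.48 to 1.81). All 3 UV2 anti-PD-1 libraries were above all 3 UV2 isotype libraries, a pattern that 5.70% of genes showed, and 0.0147% of genes were called in that comparison. In parental grafts anti-PD-1 against isotype gave 0.15 ± 0.65 (interval -1.24 to 1.55, adjusted p = 1.0). Triple therapy gave -0.56 ± 0.65 against isotype (interval -1.96 to 0.83, adjusted p = 0.739) and -0.72 ± 0.65 against anti-PD-1 (interval -2.11 to 0.68, adjusted p = 0.804), with ranges over the omissions of -0.91 to -0.19 and of -1.07 to -0.28. The difference between the anti-PD-1 effects in UV2 and in parental grafts was 1.20 ± 0.91 (interval -0.78 to 3.17, adjusted p = 0.800), with 0.33 without UV2 isotype replicate 1 and a range of 0.33 to 1.66 over the 12 omissions.

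Pdcd1 followed the T cell receptor component Cd3e from library to library. Cd3e stood at 66.5, 39.0 and 35.1 TPM in UV2 anti-PD-1, at 6.72, 27.8 and 34.3 TPM in UV2 isotype, and at 6.42, 4.78 and 8.14 TPM in triple therapy. It stood at 12.4, 14.4 and 3.77 TPM in parental anti-PD-1 and at 5.46, 5.51 and 14.9 TPM in parental isotype. The libraries with low Pdcd1 in UV2 isotype and parental anti-PD-1 (replicates 1 and 3) were also those with the least Cd3e in their groups. Across the 15 libraries Pearson's r between Pdcd1 and Cd3e was 0.96 and Spearman's rho 0.88 on the log2 scale, and r was 0.94 without the 2 libraries farthest from the median of Cd3e. Within lines r was 0.99 over the 6 UV2 libraries and 0.80 over the 9 parental libraries, and on deviations from group means it was 0.90. These are descriptions of libraries that share their groups. In bulk samples fewer T cells and less RNA per T cell cannot be told apart.

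The ratio of Pdcd1 to Cd3e was near the same level in every group. It ranged from 0.441 to 1.25 over the 15 libraries, with a median of 0.915, whereas Pdcd1 itself ranged 21.7-fold. The mean ratio was 0.939 ± 0.0364 in UV2 anti-PD-1, 0.850 ± 0.224 in UV2 isotype, 0.744 ± 0.271 in triple therapy, 0.954 ± 0.343 in parental anti-PD-1 and 0.943 ± 0.273 in parental isotype (SD, n = 3 each). The lowest ratio was in triple therapy replicate 1. Relative to Cd3e, Pdcd1 differed between UV2 and parental grafts under anti-PD-1 by 0.05 on the log2 scale, with an interval of -1.47 to 1.56 in limma and of -0.65 to 0.75 when the gene kept its own spread (adjusted p = 0.886). With Cd3e as a covariate in the fit of levels, the same difference was 0.06 ± 0.46 (adjusted p = 0.962). The own-spread fit was added after the data had been seen, because every gene shares the Cd3e values, so that the moderated fit assigns almost the same error to every gene. Relative to Cd8a, which marks cytotoxic T cells, Pdcd1 was equally even (0.411 to 1.18). Relative to Cd4, which marks helper T cells and some myeloid cells, its ratio spread from 0.229 to 6.74.

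**Figure D2:**
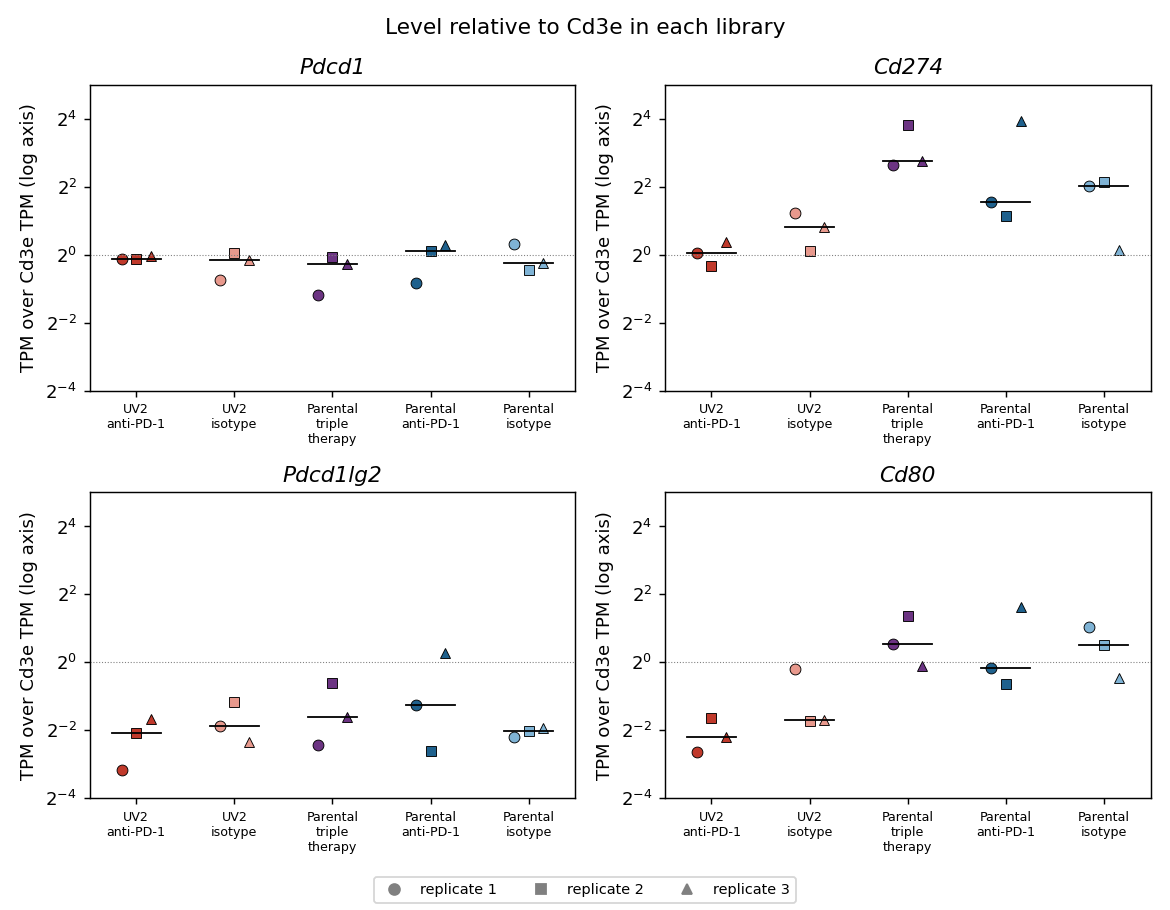
Ratio of each gene's TPM to that of Cd3e in the same library (vertical axes, base 2 log scale), by group, with replicate numbers as marker shapes and the group median as a black line. Pdcd1 stays between 0.441 and 1.25, while Cd274 spreads from 0.799 to 15.3.

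Cd274 had another pattern, with its highest mean in triple therapy and its lowest in parental isotype grafts. It stood at 40.1, 67.9 and 55.2 TPM in triple therapy, against 22.1, 24.1 and 16.6 TPM in parental isotype grafts. All triple therapy libraries were above all parental isotype libraries, as for 12.7% of genes, and 0.0221% of genes were called there. Parental anti-PD-1 grafts had 36.3, 31.9 and 57.5 TPM, also above all parental isotype libraries, as for 2.70% of genes, and 0% were called. In UV2 grafts Cd274 stood at 68.3, 31.2 and 45.6 TPM with anti-PD-1, against 15.7, 30.3 and 60.2 TPM with isotype. The UV2 groups overlapped widely, and UV2 isotype replicate 1 had the least Cd274 of all 15 libraries. Group means were 48.4 ± 18.7 TPM in UV2 anti-PD-1, 35.4 ± 22.7 TPM in UV2 isotype, 54.4 ± 13.9 TPM in triple therapy, 41.9 ± 13.7 TPM in parental anti-PD-1 and 20.9 ± 3.90 TPM in parental isotype (SD, n = 3 each), and neighbours in the order of means overlapped throughout.

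None of these Cd274 differences was called. Triple therapy against isotype gave a log2 difference of 1.32 ± 0.42 (interval 0.42 to 2.22, unadjusted p = 0.00737, limma adjusted p = 0.323), a 2.50-fold difference. Anti-PD-1 against isotype in parental grafts gave 0.94 ± 0.42 (interval 0.04 to 1.84, unadjusted p = 0.0422, adjusted p = 1.0), and 83 genes, or 0.611%, had an unadjusted p under 0.05 there. These comparisons share the parental isotype libraries, so the values are not independent of each other. Triple therapy against anti-PD-1 gave 0.38 ± 0.42 (interval -0.52 to 1.28, adjusted p = 0.865). UV2 against parental gave 0.18 ± 0.42 under anti-PD-1 (interval -0.72 to 1.08, adjusted p = 0.749) and 0.55 ± 0.42 under isotype (interval -0.35 to 1.45, adjusted p = 0.541). The isotype value ranged from 0.075 without UV2 isotype replicate 3 to 1.01 without UV2 isotype replicate 1. Anti-PD-1 against isotype in UV2 gave 0.57 ± 0.42 (interval -0.33 to 1.47, adjusted p = 0.600), and ranged from 0.10 without UV2 isotype replicate 1 to 1.04 without UV2 isotype replicate 3. In triple therapy grafts the keratinocyte and macrophage marker sums also stood higher (3761.8 to 6969.0 TPM for 10 macrophage and monocyte markers, against 2330.9 to 3090.0 TPM in parental isotype). Endothelial markers (4 of 4 positive, median 1.13, 0 called) summed to 320, 69.7 and 131 TPM in triple therapy, against 59.0, 65.4 and 73.5 TPM in parental isotype. Skeletal muscle markers (5 of 5 positive, median 2.25, 0 called) summed to 622, 133 and 365 TPM in triple therapy, against 12.2, 9.18 and 536 TPM in parental isotype. Triple therapy replicate 1 had the highest sum of the 3 for each of these 4 cell types, and the lowest Cd274. The part of these 4 cell types in the Cd274 level was not tested.

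Cd274 correlated with Cd3e with opposite signs within the lines, a difference that was not tested. Over all 15 libraries r with Cd3e was 0.21 (Spearman's rho 0.11), and r was 0.06 without the 2 libraries farthest from the median of Cd3e. It was -0.47 over the 9 parental libraries and 0.88 over the 6 UV2 libraries. The mean ratio of Cd274 to Cd3e was 1.04 ± 0.251 in UV2 anti-PD-1, 1.72 ± 0.623 in UV2 isotype, 9.08 ± 4.45 in triple therapy, 6.80 ± 7.34 in parental anti-PD-1 and 3.18 ± 1.80 in parental isotype (SD, n = 3 each). Relative to Cd3e, Cd274 was called lower in UV2 than in parental grafts under anti-PD-1 by 2.03 on the log2 scale (limma adjusted p = 0.00921, and 0.0209 with the gene's own spread). In that comparison 86.1% of all genes were called lower relative to Cd3e, which itself was called higher by 2.21 ± 0.58 (adjusted p = 0.0241), so this is the share of the background and not a result about Cd274. Without parental anti-PD-1 replicate 3, the library with the least Cd3e, the difference was -1.25 and the call was lost (adjusted p = 0.131).

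Between Cd274 and Irf1, a transcription factor induced by interferon gamma, r was 0.63 (rho 0.62) over 15 libraries and 0.58 without the 2 farthest libraries. Within the 6 UV2 libraries it was 0.86, close to the 0.88 with Cd3e, and within the 9 parental libraries it was 0.86, against -0.47 with Cd3e.

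**Figure D3:**
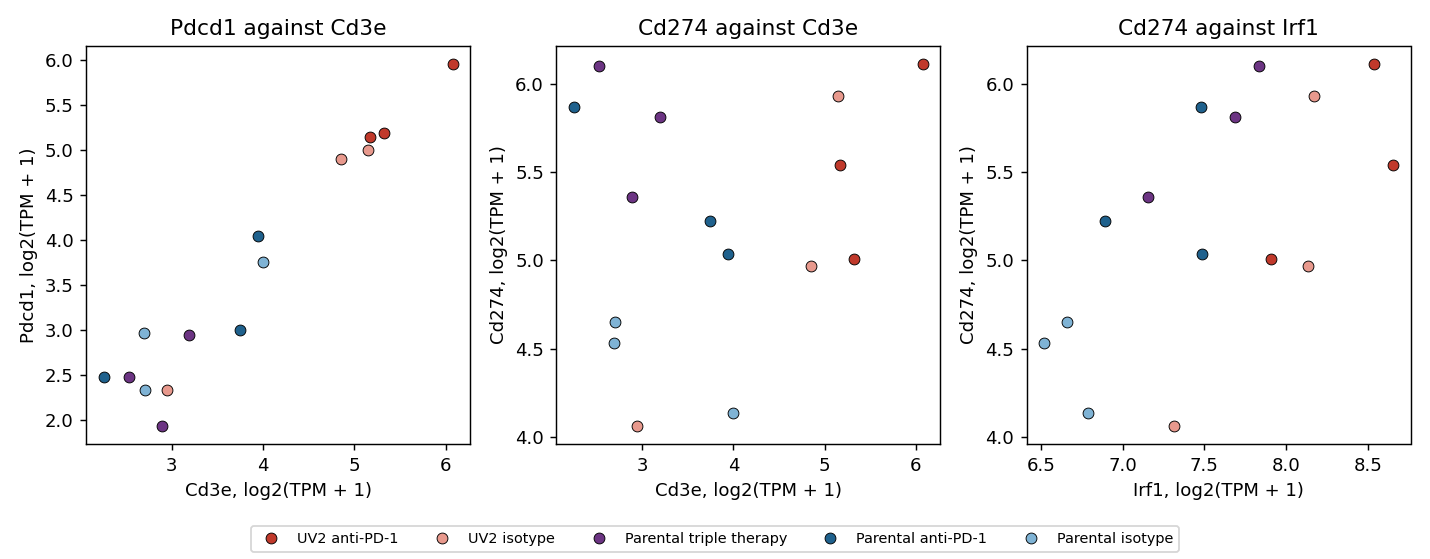
Log2(TPM + 1) of Pdcd1 against Cd3e (left), Cd274 against Cd3e (middle) and Cd274 against Irf1 (right), 1 point per library, coloured by group. Over all 15 libraries r is 0.96 for Pdcd1 with Cd3e, 0.21 for Cd274 with Cd3e and 0.63 for Cd274 with Irf1. For Cd274 with Cd3e it is 0.88 within the UV2 and -0.47 within the parental libraries.

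Pdcd1lg2 had the lowest mean of the 4 genes in each group, and its means were higher in UV2 than in parental grafts. Under anti-PD-1 it stood at 7.45, 9.25 and 11.1 TPM in UV2 grafts, against 5.24, 2.35 and 4.56 TPM in parental grafts, with no overlap. Under isotype it stood at 1.84, 12.5 and 6.75 TPM in UV2 grafts, against 1.18, 1.35 and 3.88 TPM in parental grafts, where UV2 isotype replicate 1 overlapped the parental range. Triple therapy grafts had 1.20, 3.16 and 2.66 TPM, inside the range of the parental isotype grafts. Group means were 9.27 ± 1.83 TPM in UV2 anti-PD-1, 7.03 ± 5.34 TPM in UV2 isotype, 2.34 ± 1.02 TPM in triple therapy, 4.05 ± 1.51 TPM in parental anti-PD-1 and 2.14 ± 1.51 TPM in parental isotype (SD, n = 3 each), and neighbours in the order of means overlapped.

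The difference of Pdcd1lg2 between UV2 and parental grafts under anti-PD-1 was 1.06 ± 0.50 (interval -0.03 to 2.14, limma adjusted p = 0.119), and 16.9% of genes were higher in UV2 with no overlap. Fitted on those 2 groups alone it passed the threshold (limma adjusted p = 0.0349). With all 15 libraries in the fit 26.4% of all genes were called in this comparison, so that pass is no result particular to Pdcd1lg2. Under isotype the difference was 1.19 ± 0.50 (interval 0.10 to 2.28, unadjusted p = 0.0341, limma adjusted p = 0.237). Without UV2 isotype replicate 1 it was 1.81 and passed (adjusted p = 0.0453), while calls among all genes rose from 176 to 408. This was the 1 of 6 omissions in which it passed. The 6 gave 0.68 to 1.81, with limma adjusted p up to 0.653. Anti-PD-1 against isotype gave 0.61 ± 0.50 in UV2 (adjusted p = 0.628) and 0.74 ± 0.50 in parental grafts (adjusted p = 1.0). Triple therapy gave 0.14 ± 0.50 against isotype (interval -0.95 to 1.23, adjusted p = 0.923) and -0.60 ± 0.50 against anti-PD-1 (interval -1.68 to 0.49, adjusted p = 0.776). With Cd3e, r was 0.79 over 15 libraries (rho 0.71) and 0.77 without the 2 farthest libraries, but 0.29 within the 9 parental libraries and 0.77 within the 6 UV2 libraries. With Ifng, the interferon gamma gene, r of Pdcd1lg2 was 0.87 over 15 libraries (rho 0.87). It was 0.61 within the 9 parental and 0.84 within the 6 UV2 libraries, and a link was not tested. Between the neighbouring ligand genes r was 0.34 (rho 0.34).

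The level of Pdcd1lg2 relative to Cd274 was lowest in triple therapy grafts. Per unit of Cd274, Pdcd1lg2 amounted to 0.216 ± 0.0967 in UV2 anti-PD-1, 0.214 ± 0.172 in UV2 isotype, 0.0415 ± 0.0101 in triple therapy, 0.0991 ± 0.0393 in parental anti-PD-1 and 0.114 ± 0.103 in parental isotype (SD, n = 3 each). On the log2(TPM + 1) scale the balance in triple therapy was -1.18 relative to isotype and -0.98 relative to anti-PD-1, and in both cases all 3 triple therapy libraries were lower. The value against isotype was -0.66 without parental isotype replicate 3 and ranged from -1.44 to -0.66, and that against anti-PD-1 from -1.13 to -0.73. The exact permutation test, two-sided, gave p = 0.1 for each, the smallest p that 3 against 3 allows, and 0.3 after adjustment over the 6 comparisons. UV2 against parental gave 0.88 under anti-PD-1 (exact p = 0.2, adjusted 0.4) and 0.64 under isotype (exact p = 0.5, adjusted 0.75, and 0.12 without UV2 isotype replicate 2 to 1.16 without parental isotype replicate 3), and anti-PD-1 against isotype gave 0.04 in UV2 and -0.20 in parental grafts (exact p = 1 for each).

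The levels of Cd80 overlapped between all groups. It stood at 10.7, 12.5 and 7.64 TPM in UV2 anti-PD-1, at 5.86, 8.43 and 10.7 TPM in UV2 isotype and at 9.39, 12.4 and 7.63 TPM in triple therapy. It stood at 11.1, 9.25 and 11.6 TPM in parental anti-PD-1 and at 11.2, 7.85 and 10.8 TPM in parental isotype. All 5 ranges overlapped, and UV2 isotype replicate 1 was again the lowest library. Its 6 log2 differences lay between -0.25 and 0.29, each with an SE of 0.25. The intervals bound the differences more closely than for the other members: -0.60 to 0.47 for UV2 against parental under anti-PD-1, -0.79 to 0.29 for UV2 against parental under isotype, -0.25 to 0.82 for anti-PD-1 against isotype in UV2, -0.44 to 0.63 in parental grafts, -0.56 to 0.51 for triple therapy against isotype and -0.66 to 0.41 against anti-PD-1. The sign of the first turned under other scalings (0.19 and 0.22).

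**Figure D4:**
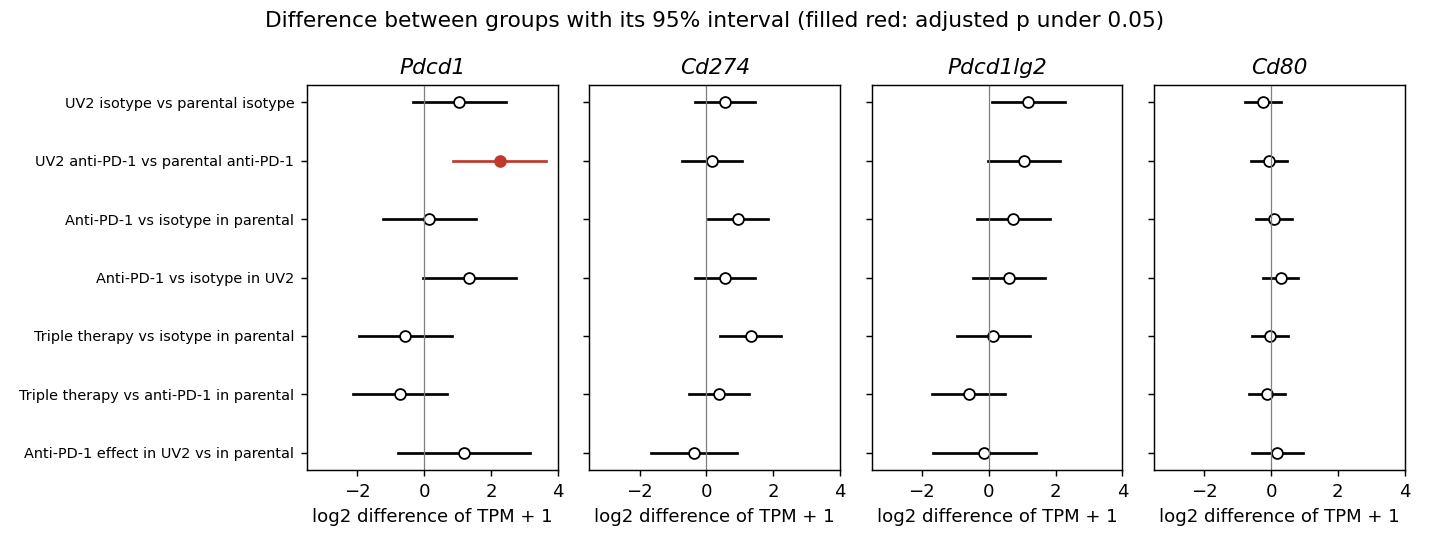
Log2 difference (horizontal axes, log2(TPM + 1) scale) with its 95% interval for each gene in the 6 comparisons of groups and in the test of the anti-PD-1 effect between lines (rows, named with the group on top of the difference first), filled red where called. The 1 call is Pdcd1 in UV2 against parental grafts under anti-PD-1 (2.26, interval 0.86 to 3.65).

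Relative to Cd3e, Cd80 was called lower in UV2 than in parental grafts under anti-PD-1 by 2.27 on the log2 scale (limma adjusted p = 0.00552, and 0.0129 with the gene's own spread), with 86.1% of all genes also called lower, so this too is no result about Cd80. Without parental anti-PD-1 replicate 3 it was -1.68 and the call was lost (adjusted p = 0.0601). The mean ratio of Cd80 to Cd3e was 0.233 ± 0.0809 in UV2 anti-PD-1, 0.495 ± 0.326 in UV2 isotype, 1.67 ± 0.850 in triple therapy, 1.53 ± 1.33 in parental anti-PD-1 and 1.40 ± 0.661 in parental isotype (SD, n = 3 each). For Pdcd1lg2 it was 0.222 ± 0.103 in UV2 anti-PD-1, 0.306 ± 0.129 in UV2 isotype, 0.392 ± 0.244 in triple therapy, 0.598 ± 0.545 in parental anti-PD-1 and 0.240 ± 0.0223 in parental isotype, with overlap between the lines. Relative to Cd3e, Pdcd1lg2 differed between UV2 and parental grafts under anti-PD-1 by -1.15 (adjusted p = 0.153).

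Cd80 and its relative Cd86, which binds the same receptors, were not alike across the lines. Cd86 stood at 33.6 ± 5.51 TPM in UV2 anti-PD-1, against 16.7 ± 3.05 TPM in parental anti-PD-1, and was called higher (0.97 ± 0.25, limma adjusted p = 0.0233). Under isotype it stood at 26.6 ± 8.52 TPM in UV2, against 11.8 ± 2.48 TPM in parental grafts (1.08 ± 0.25, adjusted p = 0.0561, not called). The ratio of Cd80 to Cd86 was 0.318 ± 0.127 in UV2 anti-PD-1, 0.316 ± 0.0155 in UV2 isotype, 0.657 ± 0.290 in triple therapy, 0.660 ± 0.194 in parental anti-PD-1 and 0.866 ± 0.232 in parental isotype (SD, n = 3 each). The ratio was lower in every UV2 library of a treatment than in the parental libraries of the same treatment, and was not tested. Since Cd86 itself stood higher in UV2, other genes can show this pattern too. The share of all genes lower relative to Cd86 was not determined, so this is no result about Cd80.

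Genes whose proteins bind PD-1, its ligands or Cd80, act just below PD-1 or share the receptors of Cd80 differed between lines in each direction. Under anti-PD-1 in UV2 against parental grafts, 5 of 8 direct partners were called higher and 3 lower (median 0.91, against -0.21 for all genes, with 26.4% of genes called). Ptpn6, the phosphatase Shp1, rose to 240 ± 57.2 TPM in UV2, against 75.8 ± 24.2 TPM in parental grafts (1.68 ± 0.29, adjusted p = 0.0105). Ctla4, the inhibitory receptor for Cd80 and Cd86, rose to 15.8 ± 1.94 TPM, against 3.13 ± 0.959 TPM in parental grafts (2.04 ± 0.44, adjusted p = 0.0143), and Cd28, the activating receptor, to 6.59 ± 2.46 TPM, against 1.71 ± 0.699 TPM (1.48 ± 0.40, adjusted p = 0.0259). Cmtm6, which keeps PD-L1 on the cell surface, rose by 0.85 ± 0.23 (adjusted p = 0.0251), whereas Cmtm4, which has a like role, fell by 1.23 on the log2 scale (adjusted p = 0.0238). Rgmb, a binding partner of PD-L2, fell to 34.7 ± 9.14 TPM in UV2, against 81.3 ± 9.83 TPM in parental grafts (-1.23 ± 0.32, adjusted p = 0.0238), and Ptpn11, the phosphatase Shp2, to 37.3 ± 10.8 TPM, against 67.6 ± 8.50 TPM (-0.87 ± 0.29, adjusted p = 0.0430).

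These calls depended on single libraries, as did that of Pdcd1: without UV2 anti-PD-1 replicate 3 or parental anti-PD-1 replicate 3, 0 of the 8 partners were called, although all 8 had an unadjusted p under 0.05 in each of the 6 omissions. With all libraries 45.1% of genes had such a p. Under isotype Ptpn6 was the 1 partner called in UV2 against parental grafts (1.43 ± 0.29, adjusted p = 0.0386), at 197 ± 54.2 TPM in UV2 and 72.6 ± 19.9 TPM in parental grafts. That call was lost without UV2 isotype replicate 2 or 3 or parental isotype replicate 1 or 2, when 0 of 8 were called. No partner was called for anti-PD-1 or triple therapy against isotype. There Ptpn6 stood at 127 ± 17.6 TPM in triple therapy, against 72.6 ± 19.9 TPM in parental isotype (0.82 ± 0.29, adjusted p = 0.339). It was higher without overlap, as were 12.7% of genes. Rgmb stood at 48.7 ± 19.2 TPM in triple therapy, against 81.3 ± 9.83 TPM in parental anti-PD-1 (-0.81 ± 0.32, adjusted p = 0.436).

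T cell markers moved with Pdcd1. Under anti-PD-1 in UV2 against parental grafts, 11 of 12 were called higher (median 2.22), against 9.31% of all genes, and the exception was Cd4 (0.66 ± 0.52, adjusted p = 0.328). Cd3d, a T cell receptor component, stood at 64.8 ± 14.4 TPM in UV2, against 9.93 ± 5.37 TPM in parental grafts (2.72 ± 0.59, adjusted p = 0.0152). Under isotype 0 of 12 were called (median 1.45) and 8 had an unadjusted p under 0.05, as had 17.8% of all genes. There were 8 calls without UV2 isotype replicate 1 and 5 without parental isotype replicate 3. Calls among all genes rose there from 176 to 408 and 457. Those libraries stood apart from their groups in the same markers, so the rise is no separate result. Without UV2 isotype replicate 2 or 3 or parental isotype replicate 1 or 2, 0 of the 12 T cell markers were called. Their summed level was 455 to 642 TPM in UV2 anti-PD-1, 96.6 to 406 TPM in UV2 isotype, 64.5 to 83.6 TPM in triple therapy, 48.4 to 141 TPM in parental anti-PD-1 and 51.8 to 177 TPM in parental isotype, and no T cell marker was at 0 in all libraries. Markers of natural killer cells also moved, with 3 of 5 called higher under anti-PD-1 in UV2 against parental grafts (9.31% of all genes), and their part in the Pdcd1 level was not tested.

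Of the genes that carry or restrain the interferon gamma signal to Cd274, 4 of 12 were called higher under anti-PD-1 in UV2 against parental grafts and 0 lower (median 0.38), where 9.31% of all genes were called higher. Ifng, the cytokine itself, stood at 29.5, 18.8 and 30.9 TPM in UV2, against 3.42, 5.12 and 5.12 TPM in parental grafts (2.29 ± 0.51, adjusted p = 0.0160). Socs1, a feedback inhibitor of the pathway, differed by 1.55 ± 0.36 (adjusted p = 0.0179), Irf1 by 1.08 ± 0.27 (adjusted p = 0.0218) and the receptor chain Ifngr1 by 0.81 ± 0.21 (adjusted p = 0.0241). Cd274 differed by 0.18 in the same libraries. Under isotype, where 1.29% of genes were called, 2 of 12 were called higher in UV2 (Socs1 1.84 ± 0.36, adjusted p = 0.0375, and Irf9 0.90 ± 0.17, adjusted p = 0.0312). Without UV2 isotype replicate 2 or 3, or parental isotype replicate 1 or 2, 0 of 12 were called there.

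In triple therapy against parental isotype, where Cd274 differed most, 0 of these 12 were called and 11 were positive (median 0.33, against 0.12 for all genes). Irf1 stood at 142, 227 and 205 TPM in triple therapy, against 90.8, 100 and 110 TPM in parental isotype (0.90 ± 0.27, adjusted p = 0.320). All triple therapy libraries were above all parental isotype libraries for Irf1, as for 12.7% of genes. In triple therapy, replicate 1 was the lowest for both Irf1 and Cd274, and a link between them was not tested. Ifng stood at 5.93 ± 3.04 TPM in triple therapy and 3.09 ± 2.05 TPM in parental isotype (adjusted p = 0.566).

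Il4 and Il13, cytokines of the route to Pdcd1lg2, were low. Both were below the filter, with a median of 0.75 and 0.20 TPM over the 15 libraries. Of the 7 genes tested, 1 was called higher under anti-PD-1 in UV2 against parental grafts and 1 lower (median 0.57), which is near the 26.4% of all genes called and so is not a result about this route. Csf2ra, the GM-CSF receptor chain, stood at 51.0 ± 12.1 TPM in UV2, against 22.5 ± 4.31 TPM in parental grafts (1.14 ± 0.31, adjusted p = 0.0263). Il13ra1, a receptor chain for interleukins 4 and 13, fell to 48.1 ± 8.33 TPM in UV2, against 91.0 ± 16.6 TPM in parental grafts (-0.90 ± 0.27, adjusted p = 0.0317).

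Transcription factors known to act on Pdcd1 were split. Under anti-PD-1 in UV2 against parental grafts 3 of 12 tested were called higher and 2 lower (median -0.08), where 9.31% of all genes were called higher and 17.1% lower, so the lower count is near the background. Batf stood at 37.8 ± 2.90 TPM in UV2, against 7.39 ± 3.19 TPM in parental grafts (2.28 ± 0.46, adjusted p = 0.0122). Tbx21 (T-bet) differed by 2.08 ± 0.45 (adjusted p = 0.0145) and Tox, a regulator of exhausted T cells, by 1.99 ± 0.50 (adjusted p = 0.0216). The early response genes Nr4a1 and Nr4a2, which many cell types make, fell by 1.92 and 2.80 on the log2 scale (adjusted p = 0.0220 and 0.0166), and Nr4a1 also under isotype by 2.30 (adjusted p = 0.0421). That isotype call was lost without any of the 3 UV2 isotype libraries or parental isotype replicate 1 or 2, when 0 of 12 were called lower. Tox2 was below the filter.

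Markers of the cells that carry the ligands differed by line as well. Under anti-PD-1 in UV2 against parental grafts 5 of 10 dendritic cell markers were called higher (median 1.04), against 9.31% of all genes. Batf3, needed by cross-presenting dendritic cells and also made by activated T cells, stood at 54.8 ± 22.6 TPM in UV2, against 4.40 ± 2.70 TPM in parental grafts (3.42 ± 0.63, adjusted p = 0.0110). Xcr1, a receptor of those dendritic cells, differed by 1.53 ± 0.29 (adjusted p = 0.0114). Of 10 macrophage and monocyte markers 6 were called higher (median 1.10, the same 9.31% of all genes), among them Ccr2 (2.26 ± 0.48, adjusted p = 0.0140) and Fcgr1 (1.46 ± 0.27, adjusted p = 0.0108). Without UV2 anti-PD-1 replicate 3 or parental anti-PD-1 replicate 3 the counts of calls in the lists named here were 0. Over the 6 omissions 4 to 7 dendritic and 6 to 8 macrophage markers had an unadjusted p under 0.05, against 6 and 7 with all libraries, and 11 T cell markers had one in each. The 45 list genes called in this comparison kept direction and call under both other scalings, whereas of 6 called under isotype 1 stayed called under median-of-ratios scaling and 3 under quantile scaling.

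The genes most like each member across the 15 libraries, by Pearson's r on the log2 scale, differed between the 4. For Pdcd1 they were Cd8b1 (0.98), a chain of the CD8 coreceptor, Lag3 (0.97), another inhibitory receptor, Cxcr6 (0.97), Cst7 (0.97) and Klrb1b (0.96). For Cd274 they were Eif4e3 (0.91), Nlrc5 (0.91), an activator of MHC class I genes, Tgtp1 (0.90), an interferon-induced GTPase, Wars (0.87) and Gbp7 (0.86). For Pdcd1lg2 they were Gimap7 (0.91), Cox17 (0.89), Bcl2a1d (0.89), Cd74 (0.89), the MHC class II chaperone, and Ppp1r35 (0.88). For Cd80 the highest were lower, with Fcrlb (0.85), Dpep2 (0.74), Vmp1 (0.72), Has1 (0.72) and Noc4l (0.71). On deviations from the group means, r with Pdcd1 stayed at 0.92 to 0.94 for its 5 genes, and r with Cd274 was 0.75 to 0.92 for its 5.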

How the data were processed

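Bulk tumor RNA was measured in 15 libraries. The authors deposited TPM values per gene symbol. Bowtie2, RSEM and the builds mm10 and GRCm38 are named in the submitters' processing notes, with no versions given in the sources used here. Each deposited column of TPM sums to 1000000. Counts were not used here and the read depth is unknown, so no counting interval is given, and TPM is relative to the other RNA of a library.

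From the deposited TPM values, log2(TPM + 1) was fitted with limma 3.58.1 (R 4.3.3, trended and robust moderation, two-sided) over all 15 libraries in 1 model. Genes with at least 1 TPM in at least 3 libraries (13592) were kept, p-values were adjusted by the Benjamini-Hochberg method over all of them, and an adjusted p under 0.05 was called. Fold changes on this scale understate the change of low genes. The test relative to Cd3e used the difference of log2 values per library. The ligand balance used an exact permutation test. Ratios, correlations and figures were made in Python 3.11.15 with numpy 2.4.6, pandas 2.3.3 and matplotlib 3.10.9. The fitting code was tested on simulated data.

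From each list, up to 4 called genes with the smallest adjusted p were named per comparison, or up to 2 with the smallest p where none was called. All direct partners could be named. Cd4, and Ifng in triple therapy, were named after their values were seen. For likeness, the 5 named genes with the highest r and a mean of at least 5 TPM were taken. The values of 1 gene counted in the interferon gamma list are not reported here. The members and lists were chosen with earlier results of these data known. Alternatives were the pseudocount (0.1), the filter, 2 scalings, a replicate block, Cd3e as a covariate, the compared groups alone, another measure of T cell content, each gene's own spread, and leaving out each library.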

Additional observations from a re-analysis of the deposited data

How the results depend on the processing

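With 3 libraries a group, unknown depth and TPM that are relative within a library, single libraries decided most counts of calls. Among the 4 genes' 28 differences in level, the direction and the side of the threshold held in 28 with a pseudocount of 0.1, with no filter and with a filter of 5 TPM, in 26 under median-of-ratios scaling, in 24 under quantile scaling, in 23 with Cd3e as a covariate and in 27 with the compared groups alone. Whether the replicate numbers pair the libraries is not known. Correlations of deviations exceeded 0.1 in 10 of 30 same-numbered pairs, and ranged from -0.54 to 0.47. Their median was -0.075, against 0.039 in the 60 pairs with different numbers. With 3 libraries a group the deviations depend on each other, so these values cannot exclude a pairing. The replicate block changed no call among the 4 genes, and with the block the genes called in UV2 isotype against parental isotype were 37 in place of 176 (95 in place of 219 relative to Cd3e) and in triple therapy against isotype 0 in place of 3. The all-gene median shifted by -0.21 in UV2 against parental anti-PD-1, -0.11 in UV2 anti-PD-1 against isotype, 0.12 in triple therapy against isotype and -0.16 for the anti-PD-1 effect between lines. The cause of the changes below was not tested.

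With Cd3e as a covariate, Pdcd1 was -0.12 in UV2 against parental isotype, 0.056 in UV2 against parental anti-PD-1 (no longer called) and -0.030 for anti-PD-1 against isotype in parental grafts, Cd274 was -0.23 in UV2 against parental anti-PD-1, and Cd80 was 0.0030 in triple therapy against isotype. Cd80 in UV2 against parental anti-PD-1 was 0.19 under median-of-ratios and 0.22 under quantile scaling, and -0.040 under quantile scaling for anti-PD-1 against isotype in parental grafts. Pdcd1lg2 was -0.31 under quantile scaling in triple therapy against isotype, 0.058 and 0.14 under median-of-ratios and quantile scaling for the anti-PD-1 effect between lines, and 1.06 (called) with the compared groups alone in UV2 against parental anti-PD-1. Relative to the mean of the T cell list, Pdcd1lg2 was -0.20 in UV2 against parental isotype. The ligand balance for anti-PD-1 against isotype in parental grafts was 0.048 with a pseudocount of 0.1.

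Genes called in UV2 against parental isotype were 82 with no filter, 5 with the Cd3e covariate and 70 with the compared groups alone. In UV2 against parental anti-PD-1 the covariate left 1 of 3586. For anti-PD-1 against isotype in UV2, 2 calls became 1 under median-of-ratios scaling and 0 under quantile scaling, the covariate or the groups alone. For triple therapy against isotype they became 5 with a pseudocount of 0.1, 8 with the covariate and 0 with no filter, either scaling or the groups alone, and against anti-PD-1 4 with a pseudocount of 0.1 in place of 0. Relative to Cd3e, each gene's own spread left 0 of 219 in UV2 against parental isotype, 0 of 112 in triple therapy against isotype and 0 of 184 against anti-PD-1. The T cell list mean gave 2262 in UV2 against parental isotype, and a pseudocount of 0.1 gave 1 for anti-PD-1 against isotype in UV2.

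Leaving out 1 library at a time gave these ranges of levels. In UV2 against parental isotype Pdcd1lg2 ranged from 0.68 to 1.81 and genes called from 3 to 457. In UV2 against parental anti-PD-1 Pdcd1 ranged from 1.91 to 2.69, Cd274 from -0.10 to 0.45, Cd80 from -0.20 to 0.12 and genes called from 9 to 4077. For anti-PD-1 against isotype Pdcd1 ranged from -0.28 to 0.52 and Cd80 from -0.050 to 0.18 in parental grafts, and Pdcd1lg2 from -0.010 to 1.11 and genes called from 0 to 3 in UV2. For triple therapy against isotype Pdcd1lg2 ranged from -0.071 to 0.51, Cd80 from -0.19 to 0.12 and genes called from 0 to 238, and against anti-PD-1 Cd80 from -0.29 to 0.028 and genes called from 0 to 152. For the anti-PD-1 effect between lines Cd274 ranged from -0.83 to 0.10, Pdcd1lg2 from -0.75 to 0.38 and Cd80 from -0.015 to 0.37.

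Relative to Cd3e, the ranges in UV2 against parental isotype were -0.27 to 0.066 for Pdcd1, -0.23 to 0.31 for Pdcd1lg2, -1.91 to -1.13 for Cd80 and 16 to 11471 genes called. In UV2 against parental anti-PD-1 they were -0.25 to 0.23 for Pdcd1, -2.52 to -1.25 for Cd274, -1.74 to -0.53 for Pdcd1lg2 and -2.67 to -1.68 for Cd80. For anti-PD-1 against isotype in parental grafts they were -0.21 to 0.27 for Pdcd1, -0.025 to 1.24 for Cd274, -0.072 to 1.14 for Pdcd1lg2, -0.68 to 0.31 for Cd80 and 0 to 2 genes called, and in UV2 -0.046 to 0.29 for Pdcd1 and 0 to 239 genes called. For triple therapy they were -0.14 to 0.54 for Cd80 and 16 to 162 genes called against isotype, and -0.74 to 0.47 for Pdcd1lg2, -0.083 to 0.91 for Cd80 and 23 to 254 genes called against anti-PD-1. For the anti-PD-1 effect between lines they were -0.13 to 0.36 for Pdcd1 and 0 to 1 genes called. The ligand balance for anti-PD-1 against isotype ranged from -0.46 to 0.32 in parental grafts and from -0.33 to 0.56 in UV2.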
